A study of Mus musculus with 4 samples.

Results

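Spots of brain sections that held RNA of *Gpr17*, *Enpp6* and *Bmp4* were compared with spots in which none of these genes was counted. Fresh frozen whole-brain tissue from *Nf1*+/- mice, which carry a germline loss of a single *Nf1* allele on a C57/BL6 background, was cut into 4 cryosections and profiled on Visium slides, where the mRNA of the several cells lying over a spot is tagged with the barcode of that spot. The 4 sections are named sections 1 to 4. All have the same genotype and no treatment, and wild-type tissue was not analysed here. The labels give no age, and whether each section is from a mouse of its own is not stated, so n is the number of sections. The main p-values set the difference between spot groups within a section against its variation from section to section. That variation was estimated with information shared across genes. The p-values and standard errors are thus not the spread of a single gene's 4 section values. Sections held 19261710 to 37002379 unique molecular identifiers (UMIs) and section 3 was the shallowest, at a median of 8862.5 UMIs per used spot. Pairs of sections shared 427 to 1989 barcodes, which mark a place on the array and not a cell, and their counts differed beyond sampling noise.

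Of 7620 spots with at least 500 UMIs, 410 held at least 2 summed UMIs of the 3 genes and were the marker spots. They were chosen by these counts, so the levels of *Gpr17*, *Enpp6* and *Bmp4* in them are a description. The 3 genes were left out of all calls but those of a cross-marker check. That check tested a gene of the 3 only in spots chosen by another. A further 5899 spots held 0 UMIs of the 3 genes and served as comparison, and 1311 spots held 1 UMI. Sections 1 to 4 held 104, 111, 73 and 122 marker spots. The working name of these spots is newly formed oligodendrocyte spots, but a spot is a small region and was given no cell type.

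Oligodendrocytes arise from progenitor cells (OPCs), which divide, migrate through grey and white matter and carry the PDGF receptor. A progenitor that leaves the cell cycle passes through a short committed and newly formed stage before it wraps axons and expresses the proteins of myelin. *Gpr17* encodes a G protein-coupled receptor that is switched on as this stage begins and off again before myelination, *Enpp6* encodes a choline-specific phosphodiesterase of newly formed oligodendrocytes, and *Bmp4* encodes a secreted morphogen that is expressed by committed precursors. The *Nf1* product neurofibromin restrains RAS signalling, and the oligodendrocyte lineage is among the cell lineages affected in neurofibromatosis type 1.

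The 250 bases before the annotated start were read for 4 genes that the results turn on. They are a gene of the rule, the gene of the progenitor list with the largest rise, the PDGF receptor gene and a lineage transcription factor. Sequences are from RefSeq (GRCm38.p6), in the direction of the gene, and the letters in capitals mark words of the SOX type (ACAAAG or ACAATG) and of the OLIG E-box type (CATCTG or CAGCTG), searched on both strands. *Enpp6* is at chr8:46986637-46986886, *Neu4* at chr1:94020243-94020492, *Pdgfra* at chr5:75152001-75152250 and *Olig2* at chr16:91225300-91225549, all on the plus strand.
Enpp6: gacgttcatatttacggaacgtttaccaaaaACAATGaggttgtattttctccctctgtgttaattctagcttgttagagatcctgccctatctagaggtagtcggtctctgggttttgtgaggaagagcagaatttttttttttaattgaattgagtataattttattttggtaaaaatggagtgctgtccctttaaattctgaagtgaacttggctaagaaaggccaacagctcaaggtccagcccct
Neu4: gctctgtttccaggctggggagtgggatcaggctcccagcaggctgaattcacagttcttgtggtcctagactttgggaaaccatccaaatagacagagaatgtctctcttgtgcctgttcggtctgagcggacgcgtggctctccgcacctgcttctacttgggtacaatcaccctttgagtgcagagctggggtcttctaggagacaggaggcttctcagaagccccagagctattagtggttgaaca
Pdgfra: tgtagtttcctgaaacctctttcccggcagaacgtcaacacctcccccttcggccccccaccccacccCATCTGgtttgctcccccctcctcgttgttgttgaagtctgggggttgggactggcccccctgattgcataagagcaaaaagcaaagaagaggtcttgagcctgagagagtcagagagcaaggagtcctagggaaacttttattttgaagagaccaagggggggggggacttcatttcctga
Olig2: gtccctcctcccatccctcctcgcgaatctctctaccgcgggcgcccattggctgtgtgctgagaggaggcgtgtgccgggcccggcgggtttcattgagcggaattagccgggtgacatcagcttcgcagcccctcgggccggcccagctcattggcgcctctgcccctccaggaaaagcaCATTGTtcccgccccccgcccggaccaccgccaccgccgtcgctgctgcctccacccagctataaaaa
*Enpp6* and *Olig2* each held 1 SOX-type word and *Pdgfra* held 1 OLIG-type word, whereas the *Neu4* stretch held neither. The stretches of *Bmp4* and *Cspg4*, which were read as well and are not shown, also held neither. A SOX-type word was found in 25.5% of 27025 promoters of the same length, in 16.2% of those of 8714 genes tested against depth-matched spots, and in 21 of 81 promoters (25.9%) of genes higher in marker spots. An OLIG-type word was found in 25.3%, 19.5% and 29.6% of the same sets. These are counts of letters, and no site was measured.

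The marker spots rested on few UMIs. Of the 410 spots, 286 held exactly 2 UMIs of the 3 genes, 74 held 3 and 50 held 4 or more, so most lay just inside the threshold. *Gpr17* was counted in 346 of them (793 UMIs), *Enpp6* in 156 (239 UMIs) and *Bmp4* in 56 (74 UMIs). A single gene was present in 269 spots, 134 spots held a pair of them and 7 held all 3. *Gpr17* was thus the main contributor, alone in 215 spots and with *Enpp6* in 95.

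The share of marker spots was 6.77% of used spots in section 1 (95% exact binomial interval 5.56 to 8.14%), 4.71% in section 2 (3.89 to 5.64%), 3.18% in section 3 (2.50 to 3.98%) and 8.53% in section 4 (7.13 to 10.1%). The intervals cover counting error only. The mean was 5.80% ± 2.34 (SD, n = 4 sections), and the order of the sections did not follow depth. The shallowest section, section 3, had the lowest share, but the deepest, section 2, had the next lowest, and section 4, at a median of 12232 UMIs, had the highest. When each spot with at least 5000 UMIs was thinned to 5000 UMIs, the share was 1.37%, 0.858%, 0.964% and 2.21% (1.35% ± 0.612), against 5.90% ± 2.25 of the same spots before thinning. Section 4 stayed highest, while sections 2 and 3 changed order. Spots in which at least 3 of 10 choroid plexus epithelium markers were detected were marker spots in 11 of 189 cases in section 1 (5.82%, interval 2.94 to 10.2%) and in 4 of 76 cases in section 4 (5.26%, interval 1.45 to 12.9%), at median depths of 15886 and 6566 UMIs. These shares were below the 6.77% and 8.53% of all used spots of the same sections. The wide intervals include those values, so whether the shares differ cannot be told from so few spots. Sections 2 and 3 had 4 and 7 spots with choroid plexus markers, and none was a marker spot. Spots with choroid plexus markers can also cover neighbouring tissue, and the part of free RNA was not tested.

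Marker spots were spread over spots of all myelin contents and were densest in the most myelin-rich ones. Spots of each section were ranked by the share of their UMIs that came from 3 major myelin genes. From the lowest to the highest quintile, the mean share of marker spots was 4.97% ± 1.73, 5.12% ± 1.84, 4.17% ± 1.89, 6.16% ± 3.28 and 8.56% ± 3.71 (SD, n = 4 sections). The highest quintile held the largest share in sections 1, 3 and 4 (10.4%, 5.88% and 12.9%), but not in section 2, where it held 5.08% and the lowest quintile 5.73%. The most myelin-rich spots were also the shallowest, with median depths of 9074.5, 8680.5, 4839 and 5608 UMIs. After thinning the share in this quintile was 2.99%, 1.99%, 2.68% and 6.92%, the highest of each section. Thinning left out the shallower spots, so these shares cover 268 of 308, 351 of 472, 224 of 459 and 159 of 287 spots. Over all quintiles only 20, 19, 18 and 27 thinned spots were marker spots. In section 2 the next highest share was 1.28%, in quintile 2. With so few marker spots, whether section 2 follows the other sections after thinning cannot be told.

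**Figure D1:**
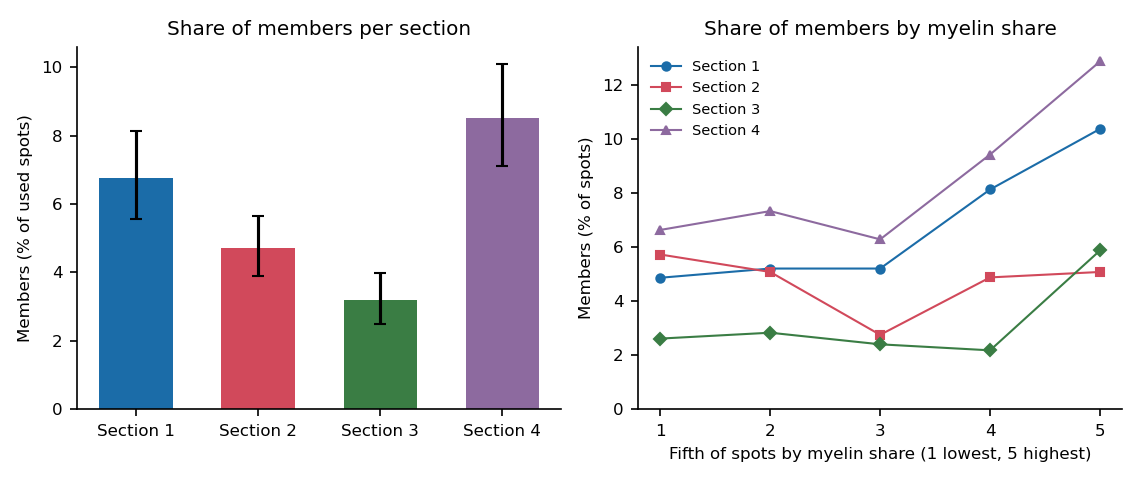
Left, percentage of used spots that were marker spots in each section, with 95% exact binomial intervals (error bars, counting error only). Right, percentage of marker spots by quintile of myelin share in each section; sections 1, 3 and 4 reach their highest value in quintile 5 and section 2 does not.

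To ask whether the 3 genes marked the same spots, spots with at least 1 UMI of a gene were matched on depth with spots without it, and the genes that had not chosen the spots were read. In 484 spots with *Enpp6* there were 204 *Gpr17* UMIs, against 94 in the matched spots. The *Gpr17* level was 21.5, 27.2, 55.5 and 38.5 CPM (UMIs scaled to a total of 1000000 per summed group) in sections 1 to 4 and 13.6, 13.3, 11.5 and 22.2 CPM in the matched spots, so each section was higher although the ranges overlapped slightly (log2 fold change 1.12, standard error 0.20, adjusted p = 0.000214 by edgeR's quasi-likelihood test). In 148 spots with *Bmp4* there were 104 *Gpr17* UMIs against 28 (26.5, 34.3, 108 and 38.6 CPM against 11.6, 9.80, 9.50 and 16.2 CPM), a log2 fold change of 1.90 (standard error 0.30, edgeR adjusted p = 1.96e-05), which DESeq2 did not call (adjusted p = 0.204; edgeR gave 2.27e-07 to 0.0477 with each section left out in turn and 0.212 without the block). In 1236 spots with *Gpr17*, *Enpp6* was counted 129 times against 79 and was higher in all 4 sections, but it did not pass the threshold after adjustment (log2 fold change 0.70, standard error 0.21, edgeR adjusted p = 0.169). The remaining pairs were too sparse to be tested. *Bmp4* was counted 42 times against 24 in spots with *Gpr17* and 22 times against 8 in spots with *Enpp6*, and *Enpp6* 23 times against 9 in spots with *Bmp4*.

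For the main comparison, the UMIs of all marker spots of a section were added up and set against those of its 0-UMI spots, with section as the pair. Deep spots reach 2 UMIs more easily, and the median depth of marker spots was higher than that of 0-UMI spots in 3 of 4 sections (14118, 17123, 10254 and 14892 UMIs against 14603, 14942, 8657.5 and 11505). Each marker spot was therefore also paired with the 0-UMI spot of its section nearest in depth, which left medians of 14115.5, 17135, 10249 and 14886 UMIs in the 410 matched spots. Of 10962 genes tested against these depth-matched spots, 108 were higher (0.985% of those tested) and 18 were lower (0.164%) at an edgeR adjusted p-value under 0.05. Against all 0-UMI spots, 121 of 13618 genes were higher (0.889%) and 31 lower (0.228%). Of the genes that were higher, 38 of 108 and 43 of 121 belonged to the 78 genes of 4 oligodendrocyte lineage lists. DESeq2 called fewer, 29 higher and 0 lower with matching (50 lower at an unadjusted p under 0.05), and without section 1 edgeR called 54 higher and 4 lower.

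Some genes of the progenitor list were higher in marker spots. The lists assign each gene to a single stage, and whether *Neu4* or others also mark the committed stage was not tested. Of 14 genes, all of which could be tested against depth-matched spots, 6 rose and none fell, with a median log2 fold change of 0.57 against -0.0019 over all genes tested, and DESeq2 called 3. *Neu4*, which encodes a sialidase, rose most of all genes that met the naming rule. It was counted at 29.5, 18.8, 26.4 and 22.0 CPM in the marker spots of sections 1 to 4 and at 8.78, 8.44, 9.62 and 6.83 CPM in the matched spots (log2 fold change 1.51, standard error 0.22, edgeR adjusted p = 9.09e-06). Every marker value lay above every matched value. The share of all tested genes without overlap is not given here, so statements on overlap only describe the genes named. *Pdgfra*, the receptor that progenitors need for survival and division, was at 47.0, 42.1, 54.0 and 58.2 CPM against 25.1, 31.3, 18.0 and 26.8 CPM (0.91, standard error 0.15, edgeR adjusted p = 5.13e-05), again without overlap. *C1ql1*, a secreted C1q-like protein, was at 33.9, 22.8, 38.4 and 29.4 CPM against 18.8, 10.9, 10.8 and 11.03 CPM (log2 fold change 1.20, standard error 0.19). *Cspg4*, the NG2 proteoglycan, and *Vcan*, the proteoglycan versican, rose by log2 fold changes of 1.09 (standard error 0.24) and 1.06 (0.25). *Tnr*, the matrix protein tenascin-R, rose least (0.48, standard error 0.12), and its marker value in section 2 was 54.0 CPM against 52.1 CPM. The 8 others did not pass the threshold, among them *Matn4* (0.76), *Sox6* (0.65) and *Pcdh15* (-0.40), and *Matn4* passed against all 0-UMI spots (log2 fold change 1.10, standard error 0.19), where 7 of 14 genes rose.

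Some transcription factors of the lineage were higher as well. Of 12 genes, 9 could be tested and 4 rose, with a median log2 fold change of 0.73, and DESeq2 called 3. *Sox10*, which drives oligodendrocyte differentiation and myelin gene transcription, was at 53.9, 28.7, 61.2 and 57.2 CPM against 15.7, 15.4, 16.8 and 21.5 CPM (log2 fold change 1.45, standard error 0.16, edgeR adjusted p = 8.5e-09). *Olig2*, which specifies the lineage, was at 42.0, 32.7, 61.2 and 51.4 CPM against 23.2, 22.3, 22.8 and 18.4 CPM (1.05, standard error 0.16, edgeR adjusted p = 1.94e-05). The related factor *Olig1* was at 219, 139, 215 and 207 CPM against 119, 97.8, 103 and 122 CPM (log2 fold change 0.77, standard error 0.076). As a description, the values of *Sox10*, *Olig2* and *Olig1* did not overlap between the groups, and section 2 had the lowest marker value of each. *Myrf*, which is switched on as myelination begins, rose by 0.92 (standard error 0.18). *Nkx2-2* (0.71), *Nkx6-2* (0.69), *Sox8* (0.73), *Sox5* (0.40) and *Zfp536* (0.30) did not pass.

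The list that shares its stage with the 3 marker genes moved less uniformly. Of 26 genes of committed and newly formed oligodendrocytes, 21 could be tested and 4 rose, with a median log2 fold change of 0.41, and DESeq2 called 2. *Bcas1*, a marker of early myelinating oligodendrocytes, was at 94.7, 65.8, 151 and 91.3 CPM against 65.2, 34.8, 84.2 and 68.8 CPM (0.64, standard error 0.10). It was higher in every section, although the ranges of the groups overlapped. *Lims2*, an adaptor of integrin adhesions, was at 28.2, 28.7, 32.4 and 21.5 CPM against 15.7, 9.43, 6.01 and 14.7 CPM (1.15, standard error 0.21). *Slc12a2*, a sodium, potassium and chloride cotransporter, and *Sirt2*, a deacetylase abundant in myelin, rose by log2 fold changes of 0.55 (standard error 0.12) and 0.52 (0.078). The other 17 did not pass, with *Tmem163* at 0.65, *Fyn* at 0.29, *Itpr2* at 0.03 and *Mical3* at -0.45. Against all 0-UMI spots, 9 of 24 rose, among them *9630013A20Rik*, a long non-coding RNA of this stage (1.78, standard error 0.41), *Rnf122* (1.22, 0.30), *Tmem163* (0.73, 0.16), *Chn2* (0.38, 0.092) and *Fyn* (0.35, 0.084). The rise of *9630013A20Rik* rested on 13, 2, 7 and 6 UMIs in the marker spots.

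Most genes of mature oligodendrocytes and myelin rose. Of 26 genes, 24 were higher and none lower, with a median log2 fold change of 0.75 and *Hapln2* (0.71) and *Il33* (0.34) not past the threshold. DESeq2 called 12 of the 26. *Mbp*, which compacts the myelin sheath, was at 2401, 1064, 2252 and 1816 CPM against 1557, 951, 1363 and 1307 CPM (0.49, standard error 0.049). Each marker value was above its own matched value, but the groups overlapped because section 2 was low in both. *Mog*, *Trf*, *Cldn11*, *Cnp* and *Mag* had log2 fold changes of 0.96, 0.79, 0.77, 0.76 and 0.75, and *Klk6*, *Gjb1* and *Mal* of 1.44, 1.16 and 0.57. The summed level of the 26 genes was 5718 to 10114 CPM in marker spots and 3574 to 5463 CPM in matched spots. This sum includes *Ptgds*, whose values are given below and which rose strongly in section 2. Against depth-matched spots, myelin content therefore moved with the choice of spots. The share of UMIs from the 3 major myelin genes was 0.489%, 0.204%, 0.482% and 0.367% in marker spots and 0.281%, 0.169%, 0.247% and 0.244% in matched spots. In all 0-UMI spots it was 0.308%, 0.213%, 0.320% and 0.287%, so marker spots of section 2 were lower and those of the other sections higher. In bulk sums of this kind, more cells of a type and more RNA per cell cannot be told apart.

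Matching on myelin content as well separated the lists. In 378 pairs matched on depth and on the myelin share, 26 of 10692 genes were higher (0.243%) and 9 lower (0.0842%). Genes of the progenitor list still rose, 6 of 11 tested, with a median log2 fold change of 0.79. *Neu4* was at 1.45 (standard error 0.23, edgeR adjusted p = 6.28e-05), *Cspg4* at 1.34 (0.27), *Vcan* at 1.22 (0.26), *Matn4* at 1.20 (0.28), *C1ql1* at 1.00 (0.19) and *Pdgfra* at 0.79 (0.14). Of the transcription factors, *Sox10* (1.00, standard error 0.16), *Olig2* (0.94, 0.17) and *Olig1* (0.65, 0.079) rose, whereas *Myrf* stood at 0.25 (0.18) and did not pass. Of 20 committed and newly formed oligodendrocyte genes tested, *Lims2* (1.21, standard error 0.22), *Sirt2* (0.46, 0.083) and *Chn2* (0.52, 0.13) rose, and *Bcas1* was at 0.25 (0.0997). Of 23 mature and myelin genes tested besides the 3 that defined the myelin share, a single gene, *Ptgds*, was called, and the median log2 fold change was 0.15. *Mog*, *Mag* and *Mal* were at 0.02, 0.01 and -0.11. That the myelin genes differ less here follows in part from the matching, which fixed 3 of their kind.

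**Figure D2:**
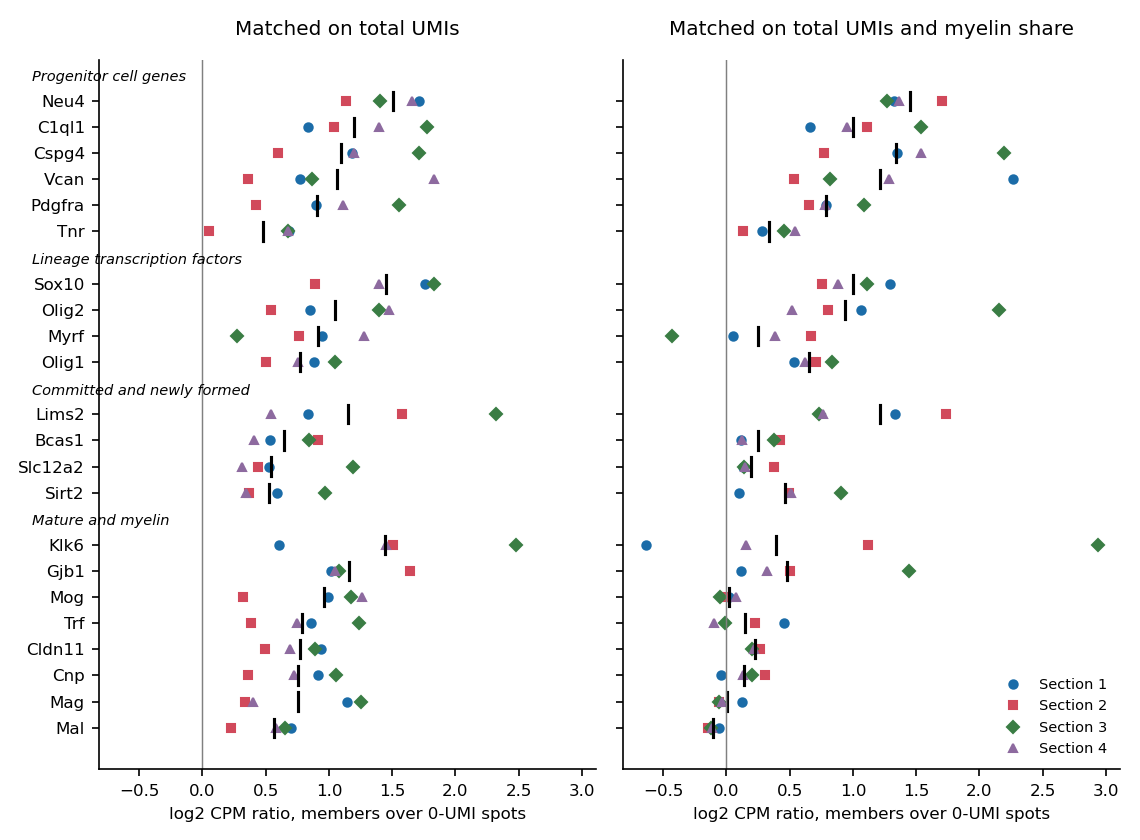
Log2 ratio of CPM in marker spots over 0-UMI spots for 22 genes of 4 lists, in each section (symbols) and as the fitted log2 fold change (black bars), with spots matched on total UMIs (left) or on total UMIs and myelin share (right). The progenitor genes shown are those called with matching on total UMIs, and their fitted values stay right of 0 in both panels. *Mog*, *Mag* and *Mal* move from 0.96, 0.75 and 0.57 to 0.02, 0.01 and -0.11.

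*Ptgds*, prostaglandin D2 synthase, is made by oligodendrocytes and also by the leptomeninges. It was at 2088, 2191, 752 and 646 CPM in marker spots against 920, 746, 737 and 568 CPM in depth-matched spots, so its rise was carried by sections 1 and 2. Matched on myelin, its log2 fold change was 0.80 (standard error 0.11). Of 3 genes of the fibroblast list tested there, *Igf2* rose (0.85, standard error 0.20), which is also a gene of the leptomeninges. The part of meningeal tissue in the *Ptgds* result was not tested.

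Matching within 10 region clusters of each section, made from expression, gave 403 pairs, in which 43 of 10929 genes were higher (0.393%) and 6 lower (0.0549%). Here 5 of 13 progenitor genes, 3 of 9 transcription factors, 3 of 20 committed and newly formed genes and 13 of 26 mature and myelin genes rose. *Neu4*, *Sox10*, *Olig2* and *Pdgfra* had log2 fold changes of 1.60 (standard error 0.23), 1.17 (0.15), 1.16 (0.16) and 0.95 (0.14). The genes of the lists and the 3 genes of the rule did not enter the clusters. Other tested genes did, so this matching can also remove part of a difference.

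**Figure D3:**
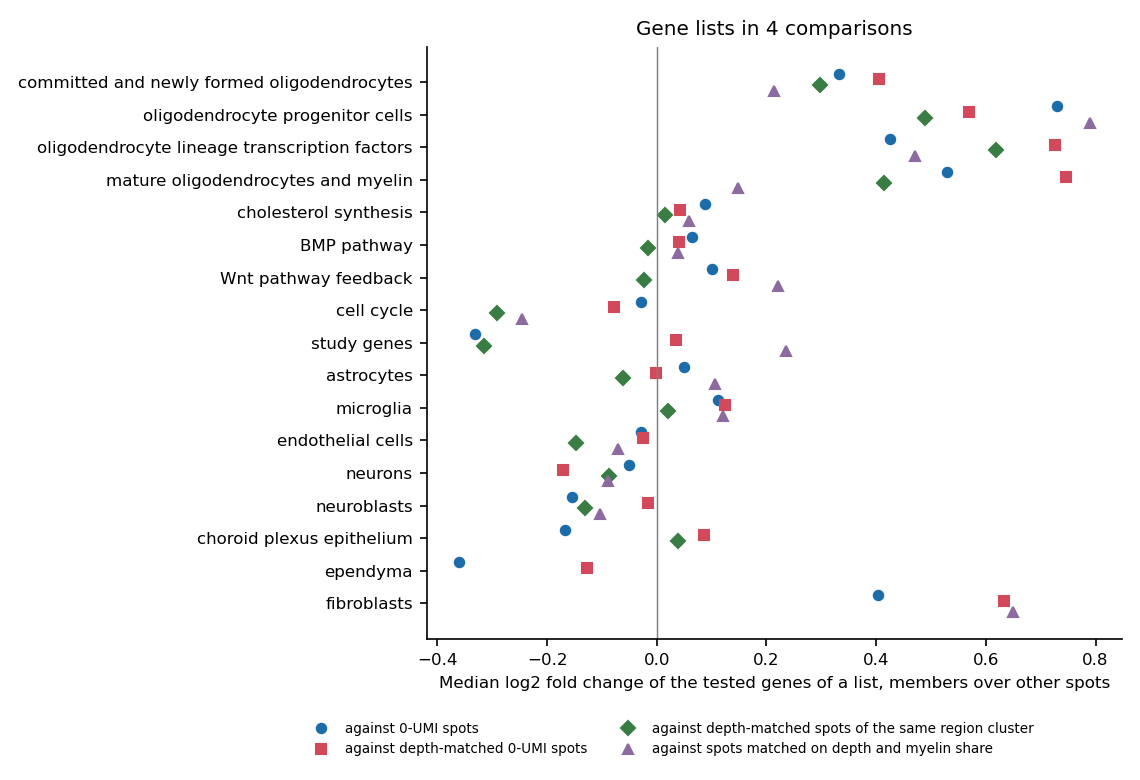
Median log2 fold change of the tested genes of each list (lists with at least 3 tested genes) in marker spots against all 0-UMI spots, depth-matched 0-UMI spots, depth-matched spots of the same region cluster, and spots matched on depth and myelin share. The progenitor list is at 0.73, 0.57, 0.49 and 0.79 and the mature and myelin list at 0.53, 0.75, 0.41 and 0.15 in that order.

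Lists of other cell types held few calls. Of 8 neuron genes, *Snap25*, a protein of synaptic vesicle fusion, was lower than in depth-matched spots (log2 fold change -0.17, standard error 0.039) at 1673, 2327, 2226 and 2734 CPM against 1851, 2515, 2703 and 3093 CPM, and the summed level of the 8 genes was 3443 to 5001 CPM against 3807 to 5351 CPM. The calls of lower genes included *Nrgn* (-0.30, standard error 0.049), *Nrn1*, *Stx1a*, *Adora2a*, *Ano3*, *Ubl7*, *Fam126b*, *Tbc1d30*, *Plpp1* and *Far2* (-0.31 to -1.03). *Nrgn*, neurogranin, is a postsynaptic protein, *Stx1a* is a syntaxin of the synapse and *Adora2a* is the adenosine receptor of striatal neurons. Against all 0-UMI spots, the calls of lower genes included *Tac1* (-0.33, standard error 0.050) and *Pde10a* (-0.29, 0.054). Of 8 astrocyte genes, *Gfap*, an intermediate filament protein, rose (0.83, standard error 0.16), from 27.6, 23.8, 9.62 and 21.5 CPM to 62.7, 43.6, 18.0 and 25.2 CPM, while *Slc1a2*, *Slc1a3*, *Aldoc* and *Gja1* were at -0.01, 0.01, -0.03 and 0.04. The summed level of the astrocyte list was 2097 to 2777 CPM against 2147 to 2644 CPM. No gene of the neuron or astrocyte list was called with myelin matched, within region clusters, or by DESeq2 with depth matching. At an unadjusted edgeR p under 0.05, 2 neuron genes were lower and 1 astrocyte gene was higher in each of these matchings. Within region clusters 3 astrocyte genes were lower at that level. None of 8 microglia, 7 endothelial, 6 neuroblast, 4 ependyma, 3 choroid plexus or 3 fibroblast genes tested passed with edgeR or DESeq2, and 4 of these 31 genes had an unadjusted p under 0.05. The 3 fibroblast genes *Igf2*, *Dcn* and *Col1a2* stood at 0.68, 0.63 and 0.45. Their summed level was 85.9 and 71.8 CPM against 47.7 and 28.3 CPM in sections 1 and 2, and 15.6 and 22.6 CPM against 20.4 and 34.7 CPM in sections 3 and 4. The part of such tissue in the other results was not tested.

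No gene of 4 pathway lists passed against depth-matched spots. Of 18 cholesterol synthesis genes, which supply the myelin membrane, none was called by edgeR or DESeq2 and none had an unadjusted p under 0.05, with log2 fold changes from -0.06 to 0.34 and a median of 0.04. Of 15 tested genes of BMP signalling other than *Bmp4*, including the receptors *Bmpr1a* (0.07) and *Bmpr2* (0.00048) and the targets *Id1* (0.15), *Id2* (-0.01) and *Id3* (0.03), none was called by either tool and 1 had an unadjusted p under 0.05. None of 4 Wnt feedback genes and 3 cell cycle genes tested was called or had an unadjusted p under 0.05. The remaining 9 cell cycle and 4 Wnt genes were too low to be tested.

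*Nf1* itself was at 9.40, 4.46, 10.8 and 5.25 CPM in marker spots (15, 9, 9 and 10 UMIs) and 11.3, 6.45, 3.61 and 5.78 CPM in depth-matched spots. With a log2 fold change of -0.06 (standard error 0.32) no difference was detectable at this depth. The study reports *Ttr*, *Enpp2*, *Rarres2* and *Ecrg4* as higher in focal areas of increased OPC density. It also found larger areas of Ecrg4 and Enpp2 immunofluorescence and of *Ttr* in situ signal there. Such areas were not located here, and in marker spots these genes varied with the comparison. *Rarres2* was lower than in all 0-UMI spots (-0.54, standard error 0.13) and not called with matching (-0.50, 0.18), *Enpp2*, also expressed by oligodendrocytes, rose with depth matching (0.33, standard error 0.061), and *Ttr* was at 0.03 (0.062) there. *Enpp2* turned to -0.38 in spots chosen by *Gpr17* alone (edgeR adjusted p = 2.37e-06). It was not called with myelin matched (0.27), without section 1 (0.24) or by DESeq2 (0.32, adjusted p = 0.262). Within region clusters *Ttr* (-0.31, standard error 0.048) and *Ecrg4* (-0.61, 0.14) were lower. *Ttr* ranged from 4.46 to 16408 CPM between the marker spots of sections 2 and 1, and choroid plexus-marker spots numbered 189, 4, 7 and 76 in the sections.

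The other genes with the largest rises against depth-matched spots were *Traf4* (1.28, standard error 0.29), *Mpzl1* (1.23, 0.20), *Cyp20a1* (1.18, 0.26) and *Litaf* (1.12, 0.17). *Traf4* encodes an adaptor of receptor signalling and *Mpzl1* a relative of the myelin protein P0. *Mpzl1* was at 32.0, 20.8, 39.6 and 21.5 CPM against 16.3, 8.94, 8.42 and 10.5 CPM, without overlap. With myelin matched, *Mpzl1* (1.05, standard error 0.21) and *Traf4* (1.32, 0.32) rose and *Litaf* (0.26, 0.16) did not pass.

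The number of marker UMIs was also considered. Spots with 1 UMI, just outside the threshold, were compared with their own depth-matched 0-UMI spots, and 40 of 12710 genes were higher (0.315%) and 15 lower (0.118%), against 3 higher and 0 lower with DESeq2 (42 lower at an unadjusted p under 0.05). Of the 4 lineage lists, the mature and myelin list held the most of these higher genes, 14 of 26 tested. The progenitor list held 3 of 14, the transcription factors 1 of 11 and the committed and newly formed genes 1 of 23. DESeq2 called 2, 0, 1 and 0 of them. In these spots *Olig1* stood at a log2 fold change of 0.38 (standard error 0.051), *Cspg4* 0.65 (0.16), *C1ql1* 0.53 (0.12), *Pdgfra* 0.40 (0.092), *Cldn11* 0.40 (0.052) and *Gfap* 0.54 (0.099). *Neu4* (0.43), *Olig2* (0.43) and *Sox10* (0.35) were not called. In spots with 0 UMIs, the *Olig2* level of the sections lay between 19.2 and 23.1 CPM. With 1, 2 and 3 or more UMIs it was 27.3, 32.5 and 74.1 CPM in section 1, 22.6, 28.8 and 43.6 CPM in section 2, 34.7, 53.5 and 71.2 CPM in section 3 and 23.7, 48.7 and 55.6 CPM in section 4. *Olig2* thus increased at each step in each section. *Pdgfra* did so in section 3 alone, and in sections 1, 2 and 4 it was lower with 3 or more UMIs (35.7, 41.7 and 44.8 CPM) than with 2 (50.4, 42.2 and 66.7 CPM). *Mbp* increased at each step in section 1 alone.

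**Figure D4:**
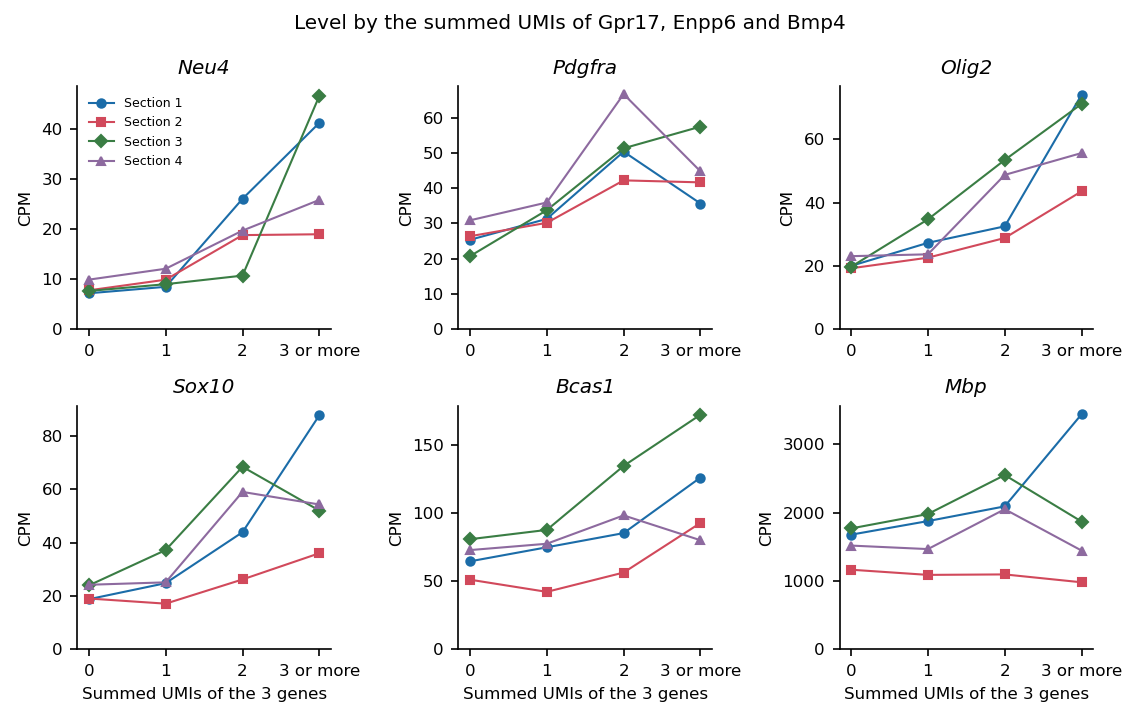
Level (CPM) of 6 genes in spots with 0, 1, 2 or 3 or more summed UMIs of *Gpr17*, *Enpp6* and *Bmp4*, for each section. *Olig2* increases at each step in all 4 sections, whereas *Mbp* of section 2 stays between 979 and 1164 CPM.

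The marker spots differed among themselves by which gene they held. Members with *Gpr17* and no *Enpp6* (59, 75, 39 and 71 spots in sections 1 to 4) were set against members with *Enpp6* and no *Gpr17* (15, 7, 17 and 15 spots). Unlike the comparisons above, these groups were not matched on depth or on myelin share. The part of depth and of tissue in their differences was not tested. A gene could pass the filter on low counts through the group where it is high, so the largest differences are a description. Of 5710 genes tested, 53 were higher in *Gpr17*-led spots (0.928%) and 138 were higher in *Enpp6*-led spots (2.42%). With scaling to total UMIs in place of TMM the split was 121 to 112, and the median of all genes moved from -0.0035 to 0.10. Of 24 mature and myelin genes tested, 23 were higher in *Enpp6*-led spots, with a median log2 fold change of -1.59. *Mbp* was at 1721, 884, 1822 and 1441 CPM in *Gpr17*-led spots and 3548, 1854, 4483 and 4736 CPM in *Enpp6*-led spots (-1.39, standard error 0.12), without overlap. *Mal* (-1.82, standard error 0.16), *Cldn11* (-1.80, 0.17), *Trf* (-1.85, 0.18), *Fa2h* (-1.84, 0.26), *Ermn* (-1.84, 0.29) and *Gjc3* (-1.85, 0.32) followed, as did *Bcas1* (-0.96, 0.23), *Slc12a2* (-1.19, 0.23) and *Myrf* (-1.32, 0.37). Of 7 genes of the BMP list tested, *Smad7*, an inhibitor of BMP and TGF-beta signalling, was higher in *Enpp6*-led spots (-1.39, standard error 0.34, edgeR adjusted p = 0.0192), and DESeq2 called none.

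Of 7 neuron genes tested, 3 were higher in *Gpr17*-led spots and none was lower, with a median log2 fold change of 0.37. *Slc17a7*, the vesicular glutamate transporter VGLUT1, was at 288, 485, 688 and 538 CPM against 76.7, 470, 270 and 191 CPM (1.00, standard error 0.18). *Tbr1*, a transcription factor of deep-layer cortical neurons, was at 54.4, 68.2, 88.0 and 122 CPM against 14.4, 46.1, 34.6 and 36.7 CPM (1.29, 0.30). *Cartpt*, a neuropeptide gene, differed by 2.56 (0.38), with 0 to 4 UMIs per section in *Enpp6*-led spots. With a section at 0 UMIs there, *Cartpt* could pass the filter on low counts only with sums of *Gpr17*-led spots. *Pdgfra* (0.69, standard error 0.35), *Olig1* (-0.34, 0.17), *Olig2* (-0.63, 0.33) and *Sox10* (-0.57, 0.30) were not called. *Enpp2* (-1.98, standard error 0.23) and *Ttr* (-2.77, 0.27) were higher in *Enpp6*-led spots, *Enpp2* in all 4 sections, with log2 ratios from -2.87 in section 1 to -0.41 in section 2. *Ttr* was at 4351 CPM against 51622 CPM in section 1 and 1080 CPM against 3863 CPM in section 4, with a log2 ratio of -0.86 in section 3, whereas section 2 had 4.83 CPM against 0 CPM. DESeq2 did not call *Ttr* (adjusted p = 0.552), and the standard error of 0.27 does not describe its spread over the sections. With 7 to 17 *Enpp6*-led spots a section, single spots weigh heavily. Without section 2 the counts were 117 and 246, without section 3 they were 26 and 81 and without section 4 they were 29 and 80. DESeq2 called 12 and 74.

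**Figure D5:**
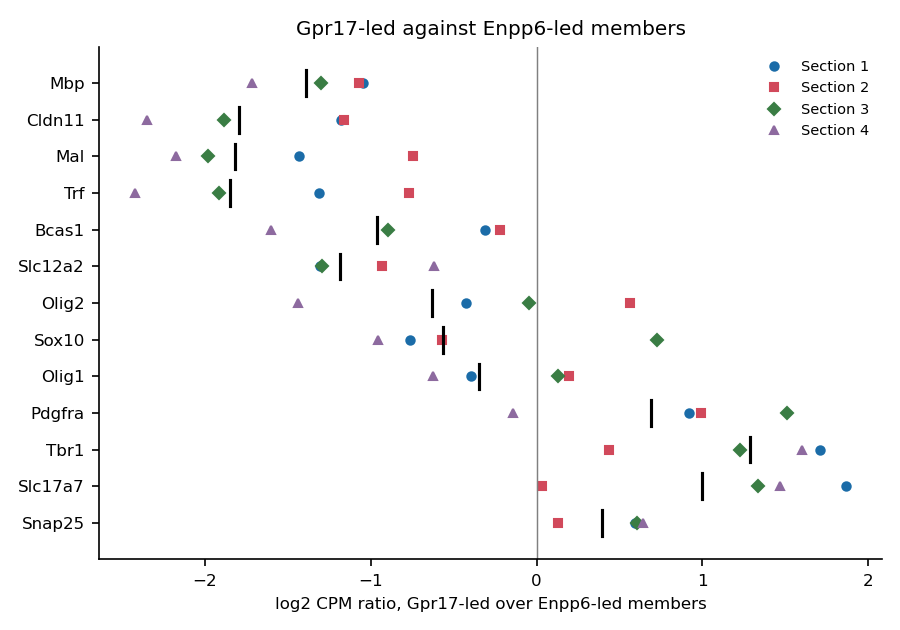
Log2 ratio of CPM in *Gpr17*-led over *Enpp6*-led marker spots for 13 genes, in each section (symbols) and as the fitted log2 fold change (black bars). The myelin genes *Mbp*, *Cldn11*, *Mal* and *Trf* lie left of 0 in all 4 sections and *Tbr1*, *Slc17a7* and *Snap25* lie right of 0.

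Whether the differences varied with the myelin content of the spot was tested as an interaction. Marker spots in the upper tertile of myelin share (50, 41, 34 and 59 spots) and the others (54, 70, 39 and 63 spots) were each matched on depth within their class. Of 8630 genes, 3 had a higher log2 fold change in myelin-rich spots than in the others and 3 had a lower one (0.0348% each). None was called by DESeq2 (71 and 43 at an unadjusted p under 0.05). *Trf*, transferrin, and *Cnp*, a myelin enzyme, were higher in the marker spots of the myelin-rich class (log2 ratios of 0.54 to 0.76 and of 0.46 to 0.74) but not in the other class (-0.36 to 0.13 and -0.23 to 0.12), and the differences of the log2 fold changes were 0.72 (standard error 0.14) and 0.65 (0.13). *Dbndd2* (0.59, standard error 0.12), *Hpcal4* (-0.57, 0.13) and *Prl* (-3.53, 0.54) were named because they passed, after their values were seen. The difference of *Ptgds* was -0.91 (standard error 0.17). As a description, the mean log2 ratio of the 10 progenitor genes tested had a median of 0.86 in myelin-rich and 0.75 in other spots and was above 0 for all 10 in each class. Among 23 mature and myelin genes the median was 0.50 with 23 above 0 in myelin-rich spots, and -0.0082 with 11 above 0 in the others.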

How the data were processed

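The authors made the files with Space Ranger 1.3.1, and the submitters' processing notes name the mouse build mm10. The deposited values are raw UMI counts of 32285 genes in every spot, without normalization, and spot positions were not used here. Spots with at least 500 UMIs were kept, and marker spots were those with at least 2 summed UMIs of *Gpr17*, *Enpp6* and *Bmp4*. UMIs were added up by section and group of spots, and the sums were tested in R 4.3.3 by the quasi-likelihood test of edgeR 4.0.16 after filterByExpr and TMM scaling, with the section as block. The p-values were adjusted by Benjamini-Hochberg over all tested genes but the 3 of the rule, and DESeq2 1.42.0 was an alternative. In the cross-marker check only the gene that chose the spots was left out. With myelin matching and in the interaction, the 3 major myelin genes were left out too. Groups of a section share its tissue, which makes them pairs, and the deviations of such pairs correlated at 0.17 to 0.48. The standard error is |log2 fold change| over the square root of F, so it also rests on variance shared across genes. Log2 ratios of single sections add 0.5 UMIs. Depth matching took the unused 0-UMI spot nearest in total UMIs, within 0.1 on the log2 scale, and myelin matching was within 0.2 on the log2 scale. Region clusters were 10 per section, by k-means in scikit-learn 1.9.0 on 20 components of 1000 variable genes. The genes of the lists and of the rule were left out of these. Genes named are those the study names, list members, and the 10 largest rises and falls at an adjusted p under 0.05, with at least 100 UMIs and all 4 sections on the same side. The marker spots and the gene lists were chosen with earlier results of these data known. Values of some genes that met these criteria are not reported here. The fits were also run on simulated counts that held no section effect, so that run does not check the pairing. The alternatives were other thresholds, single marker genes, spot filters, matchings, scaling, DESeq2, no filter, no block and leaving out each section.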

Additional observations from a re-analysis of the deposited data

Results flagged for a closer look

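In 90 sets of 4 section values, 4 had a single section far from the other 3 by Dixon's criterion, and chance gives about 1 in 20. All were section 2. Against depth-matched spots, the log2 ratio of *Tnr* was 0.050 in section 2 and 0.67 to 0.69 in the others, that of *Gjb1* was 1.64 against 1.02 to 1.08, and that of *Far2* was -1.51 against -0.78 to -0.83. Between *Gpr17*-led and *Enpp6*-led spots, the log2 ratio of *Snap25* was 0.13 in section 2, which had 7 *Enpp6*-led spots, against 0.59 to 0.64.

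A test of the difference between myelin-rich and other spots passed for 6 genes. The difference of the log2 fold changes was 0.72 for *Trf* (edgeR adjusted p = 0.00334), 0.65 for *Cnp* (0.00334), 0.59 for *Dbndd2* (0.00779), -0.57 for *Hpcal4* (0.0347), -0.91 for *Ptgds* (0.00334) and -3.53 for *Prl* (2.97e-05). *Prl* was counted almost wholly in section 4, with 13 UMIs in marker spots and 178 in matched spots of the myelin-rich class and 36 and 45 in the other class. The log2 ratio of *Ptgds* in the other class was 1.96 and 1.58 in sections 1 and 2 and -0.31 and 0.14 in sections 3 and 4.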

How the results depend on the processing

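Counts are higher and lower genes. Without the replicate block that pairs the groups of a section, the counts were 3 and 0 against all 0-UMI spots, 2 and 0 against depth-matched spots (115 lower at an unadjusted p under 0.05), 0 and 0 for 1-UMI spots (96 and 68), 0 and 0 for the interaction (122 and 119), and 21 higher in *Gpr17*-led spots. DESeq2 gave 45 and 11, 29 and 0 (50), 3 and 0 (42), 0 and 0 (71 and 43), and 12 and 74 in the same order. Against all 0-UMI spots, a threshold of 3 UMIs gave 28 and 2, of 1 UMI 45 higher, *Gpr17* alone 30 higher, *Enpp6* alone 257 and 19, *Bmp4* alone 79 higher, no filter on low counts 71 lower and a choice after thinning 118 lower. Against depth-matched spots, 3 UMIs gave 23 and 1, 1 UMI 39 lower, *Gpr17* alone 46 and 42, *Enpp6* alone 8 lower, *Bmp4* alone 16 and 1, no filter 33 lower, up to 3 matched spots 41 lower, myelin matching 26 and 9 and region clusters 43 and 6. Other counts were 166 higher in *Gpr17*-led spots without the filter and 121 with total-UMI scaling, 24 lower for 1-UMI spots without the filter, and for the interaction 5 and 5 with total-UMI scaling, 8 and 6 without the filter and 8 higher with spots above the median myelin share as the rich class. With each section left out in turn, counts ranged from 59 to 147 and 8 to 41 against all 0-UMI spots, 54 to 111 and 4 to 21 against depth-matched spots, 14 to 45 and 7 to 21 for 1-UMI spots, 26 to 117 and 80 to 246 for *Gpr17*-led against *Enpp6*-led spots, and 2 to 5 and 1 to 6 for the interaction. Against all 0-UMI spots it was 59 without section 1, 61 and 17 without section 3 and 72 and 8 without section 4. In the cross-marker check, *Gpr17* in spots chosen by *Enpp6* was at 1.16 without the block and in those chosen by *Bmp4* at 1.98 without the block and 1.89 with DESeq2, none past the threshold but all higher. The mean share of marker spots was 1.76% with 3 UMIs, 23.3% with 1 UMI and 1.35% after thinning, and 4.89 to 6.67% with each section left out.

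Of 94 results for named genes, 84 lost their call under at least 1 alternative (497 of 1371 values), including all 20 against all 0-UMI spots and all 42 against depth-matched spots, where DESeq2 called 4 and 17. The direction was kept except for 12 values, whose cause was not tested. With *Bmp4* alone these were *Inava* (-0.14), *Rnf122* (-0.28) and *Tmem163* (-0.15) against all 0-UMI spots and *Stx1a* (0.15) and *Nrn1* (0.055) with matching. With *Gpr17* alone they were *Ctsk* (-0.042) and *Prkcd* (0.074) against all 0-UMI spots and *Enpp2* (-0.38, itself past the threshold) with matching, with *Enpp6* alone *Adora2a* (0.016) and *Arc* (0.048), with 1 UMI *Prkcd* (0.032), and with myelin matching *Mal* (-0.11). Most marker spots held 2 or 3 UMIs of the 3 genes, which limits how far single spots are told apart.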
